A study of Gallus gallus with 6 samples.

Results

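The 200 genes with the most reads in embryonic chicken lung were examined. They were chosen by ranking all 17108 gene identifiers on their mean CPM (each count scaled to the total of its library, counts per 1e6) over 4 libraries, replicates 2 and 3 at embryonic day 6 (E6) and at embryonic day 5 (E5). Genes that moved by at least 0.4 on the log2 scale between the stages, in the same direction in both replicate numbers, were to be dropped. That step removed 0 of the 200, although 306 genes of the whole table met it, so all 200 were kept. Their levels in these 4 libraries, and the size of the stage difference there, are therefore what chose them and are given as description. The study sampled wild-type White Leghorn embryos, with 3 libraries at E6 and 3 at E5, each from RNA of a pool of 6 lungs. No treatment or altered allele is named in the labels, and whole lungs hold epithelium, mesenchyme and other cells together. The series title concerns how mesenchymal proteases remodel the matrix around the branching airways, and its design sets E6 against E5.

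At these stages the airway epithelium of the bird lung buds from the primary bronchus into the surrounding mesenchyme. In most embryonic tissues, the messenger RNAs that take the most reads encode products every cell needs, such as ribosomal proteins, translation factors and components of the cytoskeleton, together with transcripts of the mitochondrial genome. Which of the 200 members encode such products was not analysed here, since the files do not pair identifiers with gene names, and the label of lung could not be checked against marker genes for the same reason. CPM is not divided by transcript length. A rank therefore orders genes by reads and not by the number of RNA molecules.

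The replicate 1 libraries stood apart from the other 4 and were left out of the choice of members. They held 509443 counts at E6 and 585803 at E5, against 10059547 to 12993894 counts in replicates 2 and 3. Of the 200 members, 6 were among the 200 highest genes of E6 replicate 1 and 10 among those of E5 replicate 1, against 188 to 191 in each of the 4 libraries that chose them. Results below rest on replicates 2 and 3 unless replicate 1 is named.

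The members took nearly the same share of the counts assigned to genes at both stages, and most of them varied little across the 4 libraries. They held 24.2% of the counts in E6 replicate 2 and 23.6% in E6 replicate 3, against 23.8% in E5 replicate 2 and 23.5% in E5 replicate 3. The 10 highest members alone held 4.81% and 4.37% in the E6 libraries of replicates 2 and 3, against 4.66% and 4.50% in the E5 libraries. The member ranked first stood at 15379 and 12574 CPM in E6 replicates 2 and 3, against 14162 and 13367 CPM in E5 replicates 2 and 3. Both E5 values of that gene lie between its E6 values. The member ranked 200 had a mean of 589.4 CPM, and the gene at rank 201, the first outside, had 589.0 CPM. The median member had 853 to 875 CPM in the E6 libraries and 835 to 860 CPM in the E5 libraries.

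**Figure D1:**
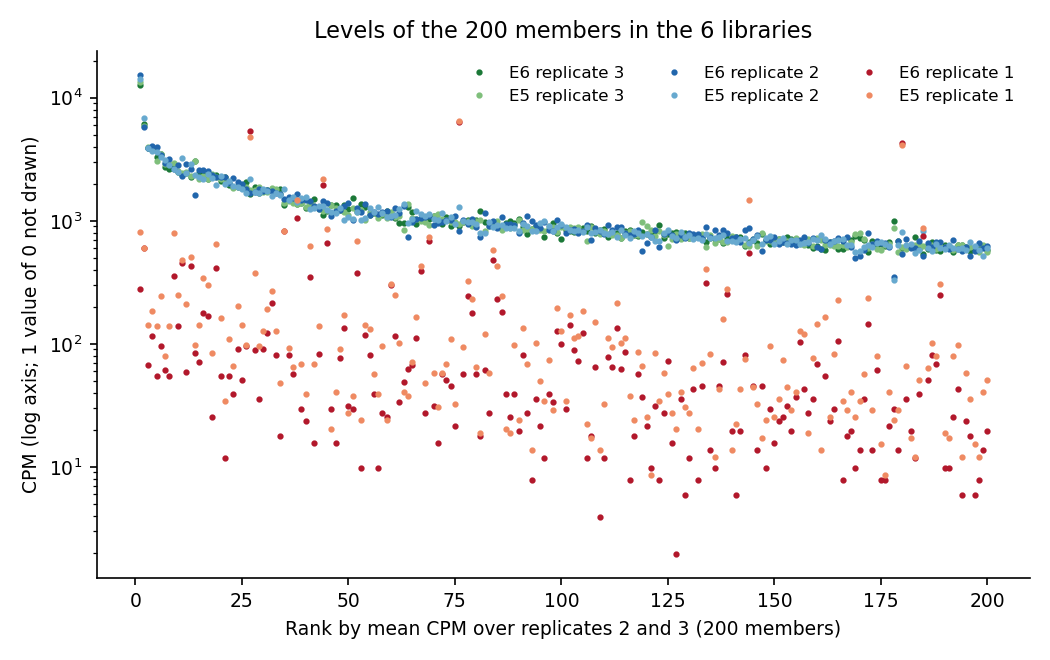
CPM of each of the 200 members (log axis) against its rank, with 1 point per library and colours for stage and replicate. The 4 libraries of replicates 2 and 3 lie on 1 narrow band that falls to about 589 CPM at rank 200, while most replicate 1 points lie far below it.

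Over the 4 libraries, the highest value of a member was in the median 1.15 times its lowest. For 12 of the 200 members this ratio was over 1.5, and for 1 it was over 2. The steadiest was the member ranked 3, at 3892 and 3885 CPM in E6 replicates 2 and 3, against 3892 and 3959 CPM in E5 replicates 2 and 3. Next came the member ranked 145, whose 4 values lay between 697 and 716 CPM. The median coefficient of variation was 6.62%, of which counting error alone would give 1.03%. The 200 genes of ranks 201 to 400 had a median coefficient of variation of 5.62%, with 1.39% from counting error. Over all 11784 genes tested these values were 11.1% and 5.30%.

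The difference between replicate numbers was not used by the rule, so it could be tested. What a number stands for is not said in the labels. Libraries of replicate 3 differed from those of replicate 2 in 31 of the 200 members, 14 higher and 17 lower in replicate 3 (edgeR quasi-likelihood test with stage as a term, adjusted p under 0.05). Of all 11784 genes tested, 11.2% passed the same test, 6.97% higher and 4.27% lower. The members' shares were 15.5% in either direction, 7% higher and 8.5% lower, and ranks 201 to 400 gave 14.5%. All 200 members passed the filter on low counts. In these bulk samples, fewer cells of a type and less RNA per cell cannot be told apart. A gene high in only 1 replicate number can enter the 200 through that number, and 17 members were among the 200 highest of 1 number only. Of these 17, 5 were called, those ranked 169, 170, 178 and 183 higher and that ranked 172 lower in replicate 3. Of the 183 in the 200 highest of both numbers, 26 were called.

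The changes of the called members were small, as were those of the called genes in ranks 201 to 400. Their median size was 0.30 on the log2 scale, against 0.33 in ranks 201 to 400 and 0.57 among the 1324 genes called in the whole table. Of the 31, 1 differed by at least 2-fold, against 2 of 29 in ranks 201 to 400 and 270 of the 1324. The SE was at most 0.093 for the members and reached 2.79 over all genes tested. A gene with a larger SE needs a larger difference to be called. Without regard to calls, the median size of the difference was 0.11 for the members, 0.08 for ranks 201 to 400 and 0.16 for all genes tested. The median signed difference of the members was -0.03, beside -0.01 for all genes.

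ENSGALG00000003193.4, at rank 178, was the member with the widest difference between the numbers. It had 998 and 878 CPM in the E6 and E5 libraries of replicate 3, against 349 and 328 CPM in those of replicate 2. The replicate 3 values do not overlap those of replicate 2, and within each number E6 lay a little above E5. Numbers without overlap were common, in 58% of the members and 49.8% of all genes tested, and do not mark a gene out. It averaged 938 ± 85.2 CPM in replicate 3 and 339 ± 14.9 CPM in replicate 2 (SD, n = 2). Each SD is over the E6 and the E5 library of a number, so it includes the stage difference. The gene was 2.76-fold higher in replicate 3 (log2 difference 1.47, SE 0.087 in edgeR). It ranked 82 in replicate 3 and 493 in replicate 2, so it is a member through replicate 3 alone and was bound to differ. Its call is therefore no support, and no p-value is given for it. In replicate 1 it had 15 counts at E6 and 14 at E5.

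ENSGALG00000017046.4, at rank 64, had 1292 and 1358 CPM in the E6 and E5 libraries of replicate 3, against 735 and 950 CPM in those of replicate 2. The numbers again do not overlap, and here E6 was the lower stage in both. It was 1.58-fold higher in replicate 3 (log2 difference 0.66, SE 0.086; adjusted p = 1.7e-12 in edgeR). It was among the 200 highest genes of both numbers, at rank 44 in replicate 3 and rank 101 in replicate 2. The third widest rise, 0.66 on the log2 scale as well, was that of the member ranked 14, at 3069 and 3086 CPM in the E6 and E5 libraries of replicate 3, against 1626 and 2337 CPM in those of replicate 2. Of the 14 members higher in replicate 3, 9 differed by more than 0.4 on the log2 scale. Those ranked 169, 170 and 178 are among the 9 and entered the 200 through replicate 3 alone, which favoured their direction.

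ENSGALG00000010448.4, at rank 63, was the member that fell most in replicate 3. It had 951 and 836 CPM in the E6 and E5 libraries of replicate 3, against 1317 and 1362 CPM in those of replicate 2. The log2 difference was -0.59 (SE 0.086; adjusted p = 6.5e-10 in edgeR), and the numbers did not overlap. ENSGALG00000013565.4, at rank 134, had 668 and 613 CPM in the E6 and E5 libraries of replicate 3, against 886 and 784 CPM in those of replicate 2. The log2 difference was -0.38 (SE 0.085; adjusted p = 2.0e-04 in edgeR). Among the 17 lower members, 1 differed by more than 0.4 on the log2 scale, and their median was -0.26. Since the choice of members favoured some of the wide rises, the numbers past 0.4 in the 2 directions are not compared.

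**Figure D2:**
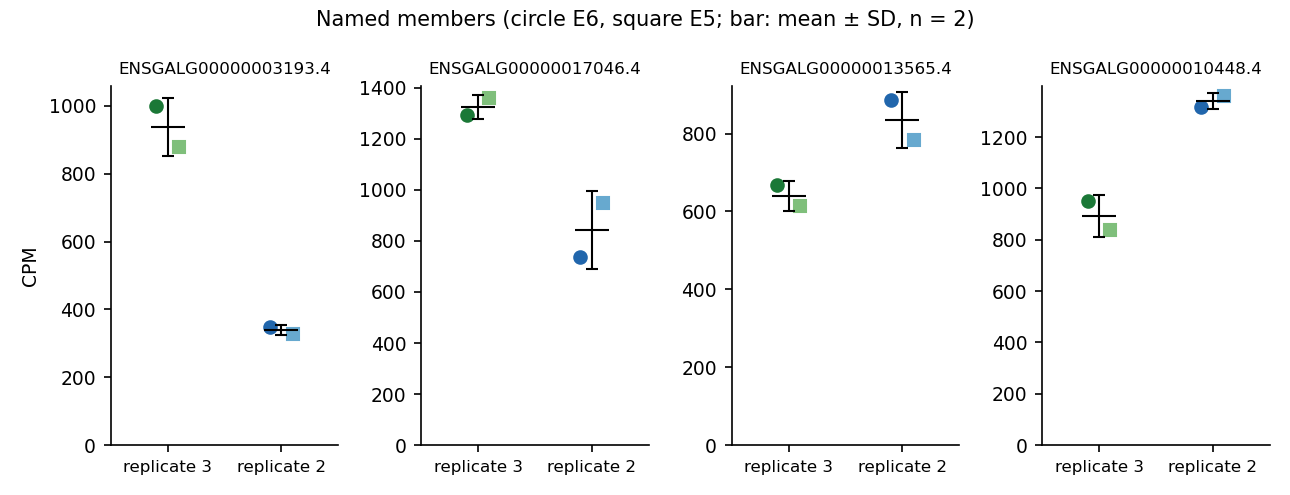
CPM of the 4 named members in replicate 3 and replicate 2 (linear axes from 0), with circles for E6 and squares for E5. Bars give the mean ± SD of the 2 libraries of a number, which are of different stages. In each panel both libraries of one number lie above both of the other, as for ENSGALG00000003193.4 at 998 and 878 CPM against 349 and 328 CPM. The same held for 58% of the members and 49.8% of all genes tested.

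The SE of the members lay between 0.085 and 0.093, nearly alike, while over all genes tested it reached 2.79. The 4 libraries leave 1 residual degree of freedom and the spread is shared across genes. Counting error was small for the members, at a median of 1.03%. On 1 set of simulated counts the same test made 18 false calls, more than its threshold allows, so single calls are uncertain. The size and level of the falsely called genes were not examined. The test called 5 of 67 genes changed 1.2-fold and 37 of 67 changed 1.5-fold. Those genes were drawn from all genes tested, most of which have lower counts than the members. The share of such changes missed among the members was therefore not measured. Over the 12 alternative fits, the largest adjusted p was 0.0028 for ENSGALG00000017046.4, 0.0034 for ENSGALG00000010448.4 and 0.29 for ENSGALG00000013565.4. The count of called members depended on the fit. DESeq2 called 13 (6.50% of the members, against 2.70% of all genes), and edgeR with replicate 1 added as another number called 11 (5.50%, against 5.60%). All 13 fits reuse the same libraries, so agreement between them is no separate support. ENSGALG00000003193.4 was among the 200 highest genes of 1 number only, so the choice of members favoured its direction.

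**Figure D3:**
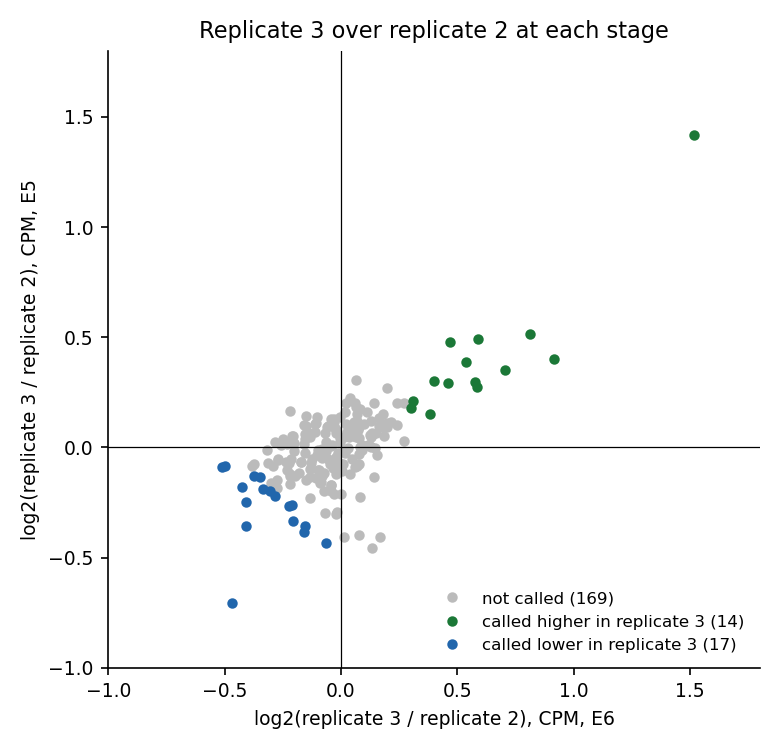
Log2 ratio of CPM in replicate 3 over replicate 2 for each member, at E6 (horizontal) and at E5 (vertical). The 14 members called higher lie in the upper right and the 17 called lower in the lower left, most of these 17 close to the 169 members not called.

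One set of members shared a feature that the rule did not use. Their identifier numbers lie close together, from 18360 to 18382, and no other 3 members follow each other in steps of at most 5. These 8 members ranked 2, 11, 13, 27, 35, 76, 180 and 185. The set was chosen after its values were seen, so it is described without a test of the set. The table holds 15 other genes with numbers in that range, the highest of them at a mean of 384 CPM. What the 8 genes encode is not annotated in the sources used here.

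All 8 were highest in E5 replicate 2. There each stood at least 1.1 times above its next highest library of the 4, which held for 11 of the 200 members in all. The member ranked 76 had 828 and 908 CPM in E6 replicates 2 and 3, against 1290 and 939 CPM in E5 replicates 2 and 3. That ranked 185 had 513 and 541 CPM in E6 replicates 2 and 3, against 821 and 623 CPM in E5 replicates 2 and 3. The highest in rank, at rank 2, had 5762 and 6095 CPM in E6 replicates 2 and 3, against 6883 and 5888 CPM in E5 replicates 2 and 3. E5 replicate 2 exceeded the mean of the other 3 libraries by 1.16 to 1.47 times over the 8 genes.

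The 8 genes differed more between the numbers at E5 than at E6. Replicate 3 over replicate 2 was -0.46 to -0.23 on the log2 scale at E5 for all 8, and -0.21 to 0.17 at E6. In the fit of both stages 2 of the 8 were called lower in replicate 3 (ranks 13 and 35), against 4.27% of all genes tested. The differences depended on single libraries. Without E6 replicate 2, in a fit with no stage term, the differences were -0.49 to -0.19 on the log2 scale. E5 replicate 2, where all 8 were highest, was then the lone library of its number, so lower values in replicate 3 follow from that. Without E5 replicate 2 the differences ran from -0.20 to 0.17. The ratio of E6 to E5 had a median of -0.42 on the log2 scale in replicate 2, beside 0.03 for the other 192 members. In replicate 3 it was -0.05, beside 0.00 for the other members. Of the 6 members at or under -0.4 in replicate 2, 4 belonged to these 8. The rule used this ratio and the 8 were chosen after their values were seen, so nothing is read from that count.

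**Figure D4:**
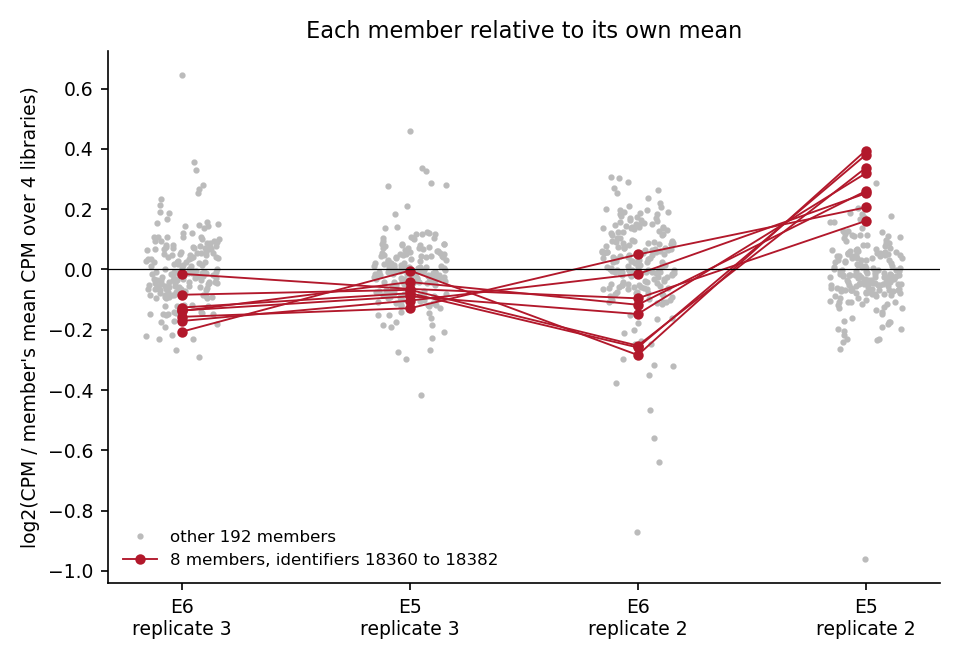
Log2 of each member's CPM over its own mean of the 4 libraries, with grey points for 192 members and red points, joined by gene, for the 8 with identifier numbers 18360 to 18382. The red points lie highest in E5 replicate 2, where all 8 are above 0, and at or below 0.1 in the other 3 libraries.

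Between the stages, the members moved little in the libraries that chose them, which the rule in part requires. The log2 ratio of E6 to E5 had a median of 0.03 in replicate 2 (from -0.68 to 0.53) and of 0.00 in replicate 3 (from -0.33 to 0.36). In replicate 2, 158 of the 200 members lay within 0.2 of 0, and in replicate 3, 186 did. The member closest to the limit of the rule on the rising side, at rank 54, had log2 ratios of 0.40 and 0.36 in replicates 2 and 3. It had 1379 and 1303 CPM in E6 replicates 2 and 3, against 1044 and 1012 CPM in E5 replicates 2 and 3. On the falling side the closest was rank 119, at -0.41 and -0.27. The highest ranked gene past the limit was at rank 235, with 0.48 and 0.54.

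The comparison of E6 with E5 over all 6 libraries, without a replicate block, called 0 of the 200 members and 0% of 11683 genes in edgeR. At an unadjusted p under 0.05 it had 0 members and 37 genes, and DESeq2 and limma-voom also called 0, with 37 and 2 genes at an unadjusted p under 0.05. Without a block, replicate 1 counted as spread within each stage, and edgeR put the common coefficient of variation between libraries at 89.0%. With the block it was 6.51%. Fits without a block could therefore call few genes, and their 0 calls do not show that the stages are alike. Replicates 2 and 3 alone, without a block, also gave 0 calls in edgeR, at a common coefficient of variation of 15.3%. There 7 of the 200 members and 303 of 11784 genes had an unadjusted p under 0.05. With the replicate block over all 6 libraries edgeR called 0 members, against 0.24% of all genes (0.12% higher and 0.12% lower). In that fit 9 of the 200 members and 558 of the 11683 genes had an unadjusted p under 0.05. From replicates 2 and 3 alone with the block edgeR called 6 members, 3 higher and 3 lower at E6, against 1.29% of 11784 genes (0.636% higher and 0.653% lower). Since the rule used this contrast, nothing is read from these counts. Of the 3 lower members, those ranked 76 and 185 are among the 8 genes that were highest in E5 replicate 2, and the third, at rank 119, was also called between the replicate numbers.

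In replicate 1, which did not enter the rule, the members were mostly low. They held 3.67% of the counts at E6 (95% Clopper-Pearson interval 3.62% to 3.72%) and 4.64% at E5 (4.59% to 4.70%). The median member had 22 counts at E6 and 43 at E5. The mean over both replicate 1 libraries was in the median 5.70% of the mean over the 4 others, and for 142 of the 200 members it was under 10% of it. One member, at rank 161, had 0 counts in E6 replicate 1, which allows up to 5.89 CPM, and 8 counts in E5 replicate 1. It had 594 and 585 CPM in E6 replicates 2 and 3, and 759 and 699 CPM in E5 replicates 2 and 3. The member ranked first overall had 277 CPM in E6 replicate 1 and 816 CPM in E5 replicate 1.

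For 6 members the mean of both replicate 1 libraries was above the mean of the 4 other libraries, and 4 of them came from the 8 genes with neighbouring identifier numbers. The member ranked 76 had 6368 CPM in E6 replicate 1 and 6471 CPM in E5 replicate 1, 6.48 times its mean of 991 CPM in the 4 other libraries. That ranked 180 had 4320 and 4136 CPM in the E6 and E5 libraries of replicate 1, 6.63 times its mean of 638 CPM. The member ranked 27 had 5396 and 4802 CPM there, 2.79 times its mean of 1830 CPM. In the opposite direction, the member ranked 2 had 599 CPM in each replicate 1 library, 10.3 times below its mean of 6157 CPM. The 8 genes together took 1.91% of E6 replicate 1 and 1.87% of E5 replicate 1, against 1.58% (E6 replicates 2 and 3) to 1.99% (E5 replicate 2) in the 4 others. The summed share of the set in replicate 1 thus lay within the range of the other libraries, while single genes of the set differed from them by up to 10.3 times. The other 192 members held 1.75% of E6 replicate 1 and 2.77% of E5 replicate 1, against 21.8% to 22.6% in the 4 other libraries.

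**Figure D5:**
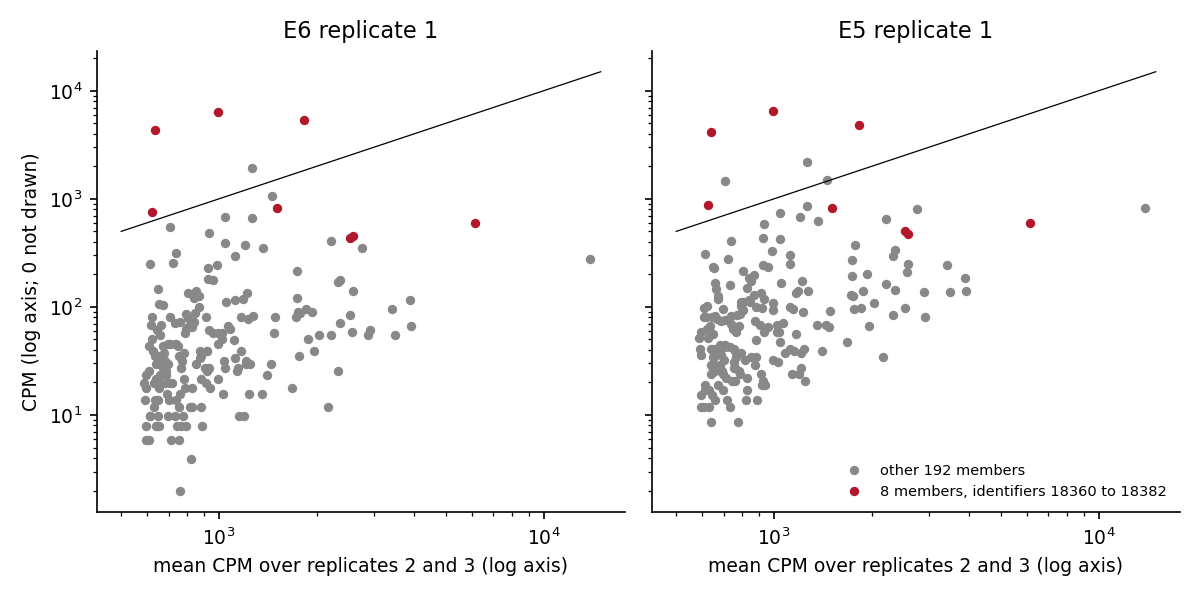
CPM of each member in E6 replicate 1 (left) and E5 replicate 1 (right) against its mean CPM over replicates 2 and 3, on log axes, with the line of equal values. Most of the 200 members lie far below the line, and 4 of the 8 red points, those with identifier numbers 18360 to 18382, lie above it in both panels.

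The pair of replicate 1 libraries gives a stage difference that the rule did not use, with 1 library per stage and so no test. In it 178 members were lower at E6 than at E5 and 22 were higher, with a median log2 ratio of -0.70 (on CPM + 1). Ranks 201 to 400 gave 162 of 200 lower and a median of -0.67, and of all 11784 genes tested 5836 were lower and 3742 higher, while 2206 had 0 counts in both libraries. The 8 genes with neighbouring numbers did not share this shift: their median was -0.01, from -0.24 to 0.17. With 22 counts for the median member at E6, single ratios in replicate 1 carry wide counting error.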

How the data were processed

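RNA sequencing libraries were made from 6 pools of White Leghorn embryonic lung, 3 at E6 and 3 at E5, with 6 lungs in a pool and the WaferGen PrepX kit, per the labels' protocols. Raw counts, 1 file for each library, were deposited by the authors for 17108 versioned Ensembl chicken identifiers. Listed in the submitters' processing notes are the builds galGal4 and mm10 and the tools R 3.2.1, HTSeq, TopHat 0.9, cutadapt 1.6, Bowtie 1.1.1 and DESeq2 (under both 2.1.8.3 and 1.8.2). Strand setting, annotation release and handling of multiply assigned reads were not given in the sources used here, so overlapping genes and near-identical copies may share counts.

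The reference table of 25635 chicken genes matched 0 of the identifiers, so no names, roles, positions or sequences are given, and the gene lists and cell type markers that need symbols were not analysed here. CPM is the count divided by the library total and multiplied by 1e6. Depth was 10059547 to 12993894 counts in replicates 2 and 3, and 509443 (E6) and 585803 (E5) in replicate 1. Intervals and floors cover counting error only.

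Replicate 3 was compared with replicate 2 at both stages in edgeR 4.0.16 (R 4.3.3) by the quasi-likelihood test (robust, TMM, filterByExpr, stage as a term). E6 was compared with E5 over 6 libraries without a block, and with the replicate number as a block as the alternative. P-values were adjusted over all genes tested (Benjamini-Hochberg, threshold 0.05). Each SE was obtained from the log2 difference and its F statistic. DESeq2 1.42.0, limma 3.58.1, other scalings, filters and rankings, and leaving out each library were the alternatives. The fit was tested on simulated data, where its false calls exceeded the threshold. The members, lists and tests were chosen with earlier results of these data known. Identifiers are printed for the 2 members with the widest called difference in each direction, and other members are given by rank.

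Deviations from the stage mean (log2 CPM, prior count 2) of same-numbered libraries correlated at 0.945, 0.909 and 0.913 for numbers 1, 2 and 3, and libraries with the same number were treated as pairs. The labels give no meaning for a number, so the pairing is read from the counts alone. Across numbers, E6 replicate 3 with E5 replicate 2 gave 0.867 and E6 replicate 2 with E5 replicate 3 gave 0.833. The stage means include replicate 1, which stood apart, so replicates 2 and 3 correlate highly in either pairing. These correlations alone say little about how replicates 2 and 3 pair. Among replicates 2 and 3, chi-square per degree of freedom was lowest between same-numbered libraries (5.00 for number 3, 7.43 for number 2) and 11.6 to 15.4 between all others. All pairs of libraries differed beyond sampling noise (chi-square per degree of freedom at least 4.73).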

Additional observations from a re-analysis of the deposited data

How the results depend on the processing

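The 200 members were the same when stage differences were dropped before ranking or when totals were scaled by TMM, and 193 of them remained when genes were ranked by their lowest library. Taking the 100 highest gave 100 genes with 16.8% of the counts, and taking the 400 highest gave 399 genes with 33.2%. Between replicates 3 and 2 the main test called 31 members and 1324 genes (15.5% of the members, against 11.2% of all genes). Other scalings, no filter on low counts and limma-voom gave 29 to 38 members (14.5% to 19%, against 8.56% to 11.2%). DESeq2 gave 13 members and 318 genes (6.5% against 2.70%). The edgeR test against a fold of 1.2 gave 7 and 543 (3.5% against 4.61%). No stage term gave 12 and 706 (6% against 5.99%). Adding replicate 1, chosen after seeing the data, gave 11 and 660 (5.5% against 5.60%). The members' share was thus above that of all genes in some of these fits, and about equal or lower in others. With the 100 highest genes 15 were called (15%, against 11.2% of all genes), and with the 400 highest 59 of 399 were called. Leaving out single libraries, with no stage term and the lone library of a number assumed to vary like the others, gave 12 to 31 members and 468 to 776 genes: 12 members without E6 replicate 3, 19 without E6 replicate 2, 14 without E5 replicate 3 and 31, 23 of them shared, without E5 replicate 2. With a lone library in a number, the spread within that number is not measured. The calls of these fits therefore do not show whether members differ more often than all genes. The cause of the differences between these fits was not tested. Over the 12 alternative fits the log2 difference was 1.36 to 1.56 for ENSGALG00000003193.4 and 0.49 to 0.84 for ENSGALG00000017046.4. It was -0.69 to -0.49 for ENSGALG00000010448.4 and -0.48 to -0.28 for ENSGALG00000013565.4, which lost its call in 3 fits. These 4 were named for the widest called differences in the same libraries, so a kept direction is no separate support. The choice of members also favoured the direction of ENSGALG00000003193.4.

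Between the stages 0 members were called under every alternative other than replicates 2 and 3 with the replicate block, which gave 6 members and 152 genes. The replicate block with 6 libraries gave 28 genes and 0 members. Leaving out single libraries gave 0, but fits that held replicate 1 without a block could call few genes. Scaling moved the median of all genes by under 0.1 on the log2 scale. Depth limits replicate 1, where 1 count is 1.96 CPM at E6 and 1.71 CPM at E5.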
